A study of Mus musculus with 9 samples.

Results

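Csmd3, Lrrn1, Ajap1, Usp53 and Lpo are 5 protein-coding genes that were higher in injured irises labelled VEGFR3 iLECko than in injured fl/fl irises. They were taken by symbol from the 18349 genes listed for each of 9 bulk RNA-Seq libraries, and all 5 were among the 15010 genes that passed a filter on low counts. The genes were chosen by their measured difference between the injured groups, so that difference is given below as a description with no test. The question put to the data was whether each gene had been lowered by the injury in the first place.

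The libraries came from C57BL/6J mice with a floxed Vegfr3 (Flt4) gene, and each held 3 pooled irises of one genotype with the outer rim of the iris trimmed off. Sham fl/fl mice received PBS on the cornea, and injured fl/fl mice received 0.5 µL of 1 M NaOH for 60 seconds at an age of 6 weeks. Injured iLECko mice received the same injury and carried in addition Prox1-CreERT2, an inducible Cre driven by a gene active in lymphatic endothelial cells but also in other cells. Tamoxifen was given at 80 mg/kg on days 13 to 17 after injury to both genotypes, and irises were collected 28 days after injury, at an age of 10 weeks, with 3 libraries per group.

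Each library held 16617187 to 18306359 estimated counts. Replicates of a group differed by more than counting noise, with a chi-square per degree of freedom of 4.65 to 67.7 between pairs. The highest values, 67.7 and 59.4, were those of injured fl/fl replicate 1 with replicates 2 and 3, and other pairs had at most 24.7. The targeted gene Flt4, which encodes VEGFR3, did not check the labels. Its counts were 282, 237 and 265 in Sham, 277, 353 and 400 in injured fl/fl and 478, 370 and 476 in the libraries labelled iLECko. The iLECko libraries were not lower (log2 difference from injured fl/fl 0.33, SE 0.15, adjusted p = 0.20, edgeR), and reads outside a deleted exon would not show a deletion. The genotype entries of 2 iLECko libraries also carry a name other than Vegfr3, while their titles give the group used here. The summed level of 4 Y-linked genes was 0.736 to 1.11 CPM (counts scaled to the library total, with TMM factors) in the 3 iLECko libraries and 0.804 CPM in injured fl/fl replicate 3, against 51.1 to 167 CPM in the other 5 libraries. The makeup of the pools by sex therefore differed between the injured groups.

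The 5 genes do different things. Csmd3 encodes a very large membrane protein built of CUB and sushi domains, repeats shared with complement regulators, and is known mainly from the brain, where it acts on dendrite growth. Lrrn1 encodes a neuronal leucine-rich repeat membrane protein, a family of cell surface proteins used in recognition between cells. Ajap1 encodes a membrane protein of adherens junctions that binds basigin and is also found at synapses. Usp53 encodes a protein of the ubiquitin-specific protease family that lies at tight junctions and is needed in hair cells of the inner ear. Lpo encodes lactoperoxidase, a secreted heme enzyme of milk, tears and airway mucus that uses hydrogen peroxide to oxidise thiocyanate into an antimicrobial product. The iris is made of smooth muscle, pigmented epithelium, stroma, vessels and nerve fibres, while the cell bodies of its neurons lie elsewhere. A neural name therefore covers Csmd3 and Lrrn1, in part Ajap1, and neither Usp53 nor Lpo.

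In the GENCODE M21 annotation of GRCm38, the 5 genes lie on 5 chromosomes. Csmd3 spans chr15:47580637-48792063 on the minus strand, and its longest transcript of 13022 bases has 71 exons. Lrrn1 spans chr6:107529768-107570214 on the plus strand, with a longest transcript of 3700 bases in 2 exons. Ajap1 lies at chr4:153373221-153482811, Usp53 at chr3:122931493-122984510 and Lpo at chr11:87806428-87828289, all on the minus strand. The longest transcript was 3048 bases for Ajap1, 6185 bases for Usp53 and 2926 bases for Lpo. No exon of these genes overlapped an exon of another annotated gene on either strand, and all 45 of their deposited values were whole numbers.

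The RefSeq promoter windows are shown for the 3 genes with an entry. A link between the base composition of the windows and the response to injury was not tested. Each window runs from 250 bases before to 50 bases after the RefSeq gene start on GRCm38.p6 and is printed in the direction of the gene, with matches to GGGCGG, the GC box, and to CAGCTG, an E-box, in capitals. The windows are chr4:153482781-153483080 (minus strand) for Ajap1, chr6:107529476-107529775 (plus strand) for Lrrn1 and chr11:87826065-87826364 (minus strand) for Lpo. The RefSeq start of Lpo lies 2175 bases inside the GENCODE span given above, so its window does not reach the outermost GENCODE start.
Ajap1: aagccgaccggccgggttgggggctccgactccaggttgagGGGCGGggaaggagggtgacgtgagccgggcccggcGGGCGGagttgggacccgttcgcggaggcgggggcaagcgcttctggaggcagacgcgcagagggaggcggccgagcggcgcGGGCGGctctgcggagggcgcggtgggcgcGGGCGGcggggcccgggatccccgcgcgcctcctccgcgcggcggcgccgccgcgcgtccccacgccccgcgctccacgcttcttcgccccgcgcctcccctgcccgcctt
Lrrn1: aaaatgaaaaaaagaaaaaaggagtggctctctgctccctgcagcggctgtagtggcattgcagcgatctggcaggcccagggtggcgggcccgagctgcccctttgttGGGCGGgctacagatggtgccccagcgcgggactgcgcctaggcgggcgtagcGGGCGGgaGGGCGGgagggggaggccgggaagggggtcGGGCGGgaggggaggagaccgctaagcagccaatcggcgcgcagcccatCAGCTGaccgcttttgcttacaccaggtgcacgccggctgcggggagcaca
Lpo: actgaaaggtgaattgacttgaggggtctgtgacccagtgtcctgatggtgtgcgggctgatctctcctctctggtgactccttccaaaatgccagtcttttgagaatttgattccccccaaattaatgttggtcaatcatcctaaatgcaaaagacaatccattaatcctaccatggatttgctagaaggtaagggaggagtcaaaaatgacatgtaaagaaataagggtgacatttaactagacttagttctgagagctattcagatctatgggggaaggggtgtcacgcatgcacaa
The Ajap1 window was 80.7% G and C with 51 CpG dinucleotides, and its G and C share was above that of 99.2% of all 32851 mouse windows. The Lrrn1 window was 67.3% G and C with 24 CpG, above 86.2% of windows. The Lpo window was 43.3% G and C with 2 CpG, above 17.3% of windows. Searched on both strands, Ajap1 and Lrrn1 each held 4 GC boxes, which 35.7% of all windows contain at least once, and Lrrn1 held 1 E-box, present in 16.3% of windows. None of these 3 windows held TATAAA (in 13.6% of windows), the AP-1 letters TGANTCA (7.81%), TTCAGCACC from the binding site of the neuronal repressor REST (0.371%) or the SMAD letters GTCTAGAC (0.213%). Csmd3 and Usp53 are named only.

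Lrrn1 fell furthest after injury and stayed below Sham in both injured groups. Lrrn1 (gene ID 16979) had 69.7, 48.2 and 67.6 CPM in Sham, 7.65, 9.60 and 9.70 CPM in injured fl/fl and 24.8, 23.4 and 21.5 CPM in injured iLECko libraries. The 3 groups did not overlap, and the iLECko libraries stood between Sham and injured fl/fl. Here and below, a gap between the injured groups is tied to the choice of the genes and is not read as a result. Group means were 61.8 ± 11.9, 8.98 ± 1.16 and 23.2 ± 1.66 CPM (SD, n = 3), so injured fl/fl irises held 14.5% and injured iLECko irises 37.6% of the Sham level.

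Csmd3, at a low level, was lowest in the injured fl/fl libraries. Csmd3 (gene ID 239420) had 55, 29 and 53 counts in Sham, 11, 15 and 12 counts in injured fl/fl and 45, 71 and 56 counts in injured iLECko libraries. On the CPM scale these were 3.05, 1.64 and 2.98, then 0.668, 0.878 and 0.689, then 2.63, 4.02 and 3.22. Sham replicate 2 was the lowest Sham library, yet it stood above each injured fl/fl library, and the iLECko libraries overlapped Sham. The means were 2.56 ± 0.796, 0.745 ± 0.116 and 3.29 ± 0.699 CPM (SD, n = 3).

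The pattern of Ajap1 was close to that of Csmd3. Ajap1 (gene ID 230959) had 87, 67 and 86 counts in Sham, 33, 38 and 18 in injured fl/fl and 110, 82 and 90 in injured iLECko libraries. In CPM the Sham libraries had 4.82, 3.78 and 4.84, the injured fl/fl libraries 2.0, 2.22 and 1.03 and the injured iLECko libraries 6.43, 4.64 and 5.18. The injured fl/fl libraries lay below all others, and Sham and iLECko overlapped. Means were 4.48 ± 0.604, 1.75 ± 0.633 and 5.42 ± 0.914 CPM (SD, n = 3).

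Usp53 was lowest in injured fl/fl and highest in iLECko, with small differences between the groups. Usp53 (gene ID 99526) had 26.4, 22.8 and 26.7 CPM in Sham, 19.2, 21.2 and 18.5 CPM in injured fl/fl and 33.2, 32.7 and 31.4 CPM in injured iLECko libraries. The 3 groups did not overlap, with injured fl/fl lowest, Sham between and iLECko highest. Over all tested genes, 32.4% were lower in injured fl/fl than in Sham without overlap. Means were 25.3 ± 2.15, 19.6 ± 1.40 and 32.4 ± 0.944 CPM (SD, n = 3).

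Lpo went the other way, rising after injury in both genotypes from a level near the limit of detection. Lpo (gene ID 76113) had 6, 5 and 3 counts in Sham, 12, 13 and 13 counts in injured fl/fl and 53, 31 and 45 counts in injured iLECko libraries. The groups again did not overlap, at 0.332, 0.282 and 0.169 CPM in Sham, 0.728, 0.761 and 0.746 CPM in injured fl/fl and 3.10, 1.76 and 2.59 CPM in injured iLECko. Means were 0.261 ± 0.0837, 0.745 ± 0.0164 and 2.48 ± 0.677 CPM (SD, n = 3). The spread in injured fl/fl, a coefficient of variation of 2.2%, was smaller than the 28.1% that counting alone gives at this level, so it understates the error of a low count.

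**Figure D1:**
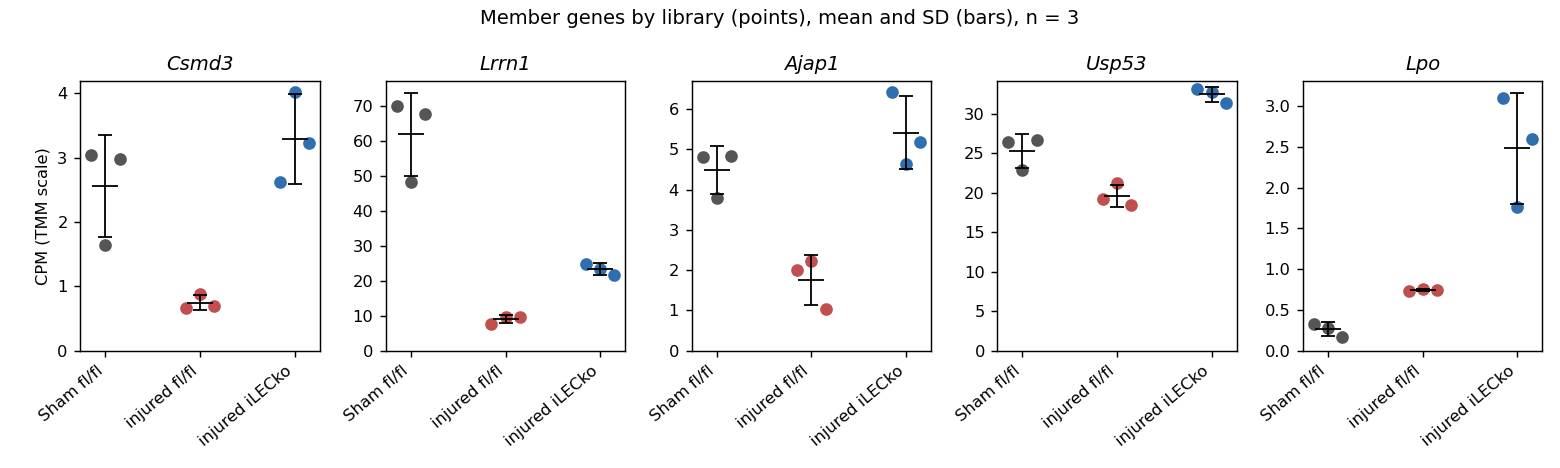
Level of each gene in CPM by library (points) with the group mean and SD (bars, n = 3) for Sham fl/fl, injured fl/fl and injured iLECko irises. In 4 panels the injured fl/fl points lie lowest, and in the Lpo panel the Sham points do, with means of 0.261, 0.745 and 2.48 CPM from left to right.

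Divided by the length of the longest transcript, the 5 genes covered a wide range of levels. In Sham irises the approximate TPM (counts per transcript length, scaled to the library) were 48.5 for Lrrn1, 11.8 for Usp53, 4.26 for Ajap1, 0.571 for Csmd3 and 0.258 for Lpo. In injured fl/fl irises Usp53 came first at 7.45 TPM, followed by Lrrn1 at 5.73, Ajap1 at 1.34, Lpo at 0.598 and Csmd3 at 0.135 TPM. In injured iLECko irises Lrrn1 led again with 16.3 ± 1.04 TPM, and Usp53 followed with 13.6 ± 0.523 TPM (SD, n = 3). Lpo, at 2.19 TPM, stood above Csmd3, at 0.661 TPM, in those libraries.

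The values that chose the genes were the differences between injured iLECko and injured fl/fl irises, given here without a test. The log2 difference was 2.13 for Csmd3 (SE 0.32), 1.72 for Lpo (SE 0.32), 1.62 for Ajap1 (SE 0.29), 1.37 for Lrrn1 (SE 0.16) and 0.72 for Usp53 (SE 0.09). A gene is called throughout at an adjusted p below 0.05 with a change above 1.5-fold. All 5 were called higher here because they were chosen on it, and 0.573% of all tested genes were, so nothing is read from that count. Over the alternative fits the log2 difference ranged from 2.0 to 2.27 for Csmd3, 1.53 to 1.92 for Lpo, 1.35 to 2.35 for Ajap1, 1.27 to 1.43 for Lrrn1 and 0.68 to 0.81 for Usp53. The highest Ajap1 value came with the Y-linked level as a covariate. Injured fl/fl replicate 3, the fl/fl library low in Y-linked counts, had 18 Ajap1 counts against 33 and 38 in replicates 1 and 2. All iLECko libraries were low in Y-linked counts as well. Injured fl/fl replicate 3 also had 12 Csmd3, 169 Lrrn1, 322 Usp53 and 13 Lpo counts, near those of replicates 1 and 2. Among the injured groups only this pool separates sex from the genotype label, and 1 pool is too few to tell them apart.

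For the question whether injury itself had moved the genes, the mean of both injured groups was set against Sham. With equal group sizes and equal spread in both injured groups, this contrast would be independent of the one that chose the genes. The spread that counting alone gives was unequal, at 28.1% in injured fl/fl and 13.2% in iLECko for Csmd3. For Ajap1 it was 18.4% and 10.3%. The contrast is therefore less bound to the choice than the others, but not free of it for these low counts. In the quasi-likelihood fit of edgeR, with p-values adjusted over 15010 genes by the method of Benjamini and Hochberg, 2 of 5 were called lower, beside 16.5% of all tested genes, and 1 of 5 was called higher, beside 21.2%. Lrrn1 was lower by a log2 change of -2.10 (SE 0.12, adjusted p = 1.11e-06) in 6 of 6 injured libraries. Lpo was higher by 2.35 (SE 0.34, adjusted p = 0.000252), also in 6 of 6. Csmd3 was lower by -0.70 (SE 0.26, adjusted p = 0.0400), with injured fl/fl and iLECko libraries on opposite sides of the Sham mean. Ajap1 did not pass at -0.54 (SE 0.24, adjusted p = 0.0758). Usp53 was at -0.0040 (95% interval -0.15 to 0.15, adjusted p = 0.968), the mean of a lower and a higher group.

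The Csmd3 call in this averaged contrast depended on single libraries. By edgeR its adjusted p was 0.160 without Sham replicate 1, 0.153 without Sham replicate 3, 0.0748 and 0.0735 without iLECko replicate 1 and 3, and 0.0641 and 0.0721 without injured fl/fl replicate 1 and 3. It was 0.0531 by DESeq2 and 0.232 with the Y-linked covariate, with the log2 change between -0.94 and -0.56 over all alternatives. Ajap1 passed without injured fl/fl replicate 2 (-0.64, adjusted p = 0.0434) and with library size as the only scaling (-0.68, adjusted p = 0.0285), and was at -0.0039 with the Y-linked covariate.

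Against Sham, the injured fl/fl irises held less Csmd3, Lrrn1 and Ajap1. This contrast shares the injured fl/fl libraries with the one that chose the genes, and members chosen for a low injured fl/fl level are bound to lean downward in it. In the edgeR fit, 3 of 5 genes were called lower, beside 17.5% of all tested genes, and 4 of 5 were lower without overlap, beside 32.4%. Lrrn1 changed by -2.78 on the log2 scale (SE 0.16, adjusted p = 1.13e-06), and 1.25% of tested genes had a lower value. Csmd3 changed by -1.77 (SE 0.32, adjusted p = 0.00126) to 29.1% of the Sham mean, with 4.58% of genes below it. Ajap1 changed by -1.35 (SE 0.29, adjusted p = 0.00309) to 39.1% of Sham. Usp53, at -0.37 (SE 0.09, adjusted p = 0.00598) and 77.6% of Sham, passed the p but not the 1.5-fold limit. Lpo was called higher at 1.49 (SE 0.38, adjusted p = 0.00760), a call that 22.1% of genes received. Each of these calls held in all 16 alternatives, with Csmd3 between -2.01 and -1.63, Ajap1 between -1.56 and -1.08 and Lpo between 1.26 and 1.69.

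In iLECko irises, Lrrn1 was below Sham, Lpo and Usp53 were above it, and Csmd3 and Ajap1 did not pass the test in either direction. This contrast shares the iLECko libraries with the choice. Lrrn1 remained lower at -1.41 (SE 0.15, adjusted p = 5.9e-05, edgeR), a call that 15.0% of tested genes received. Csmd3 did not pass at 0.36 (95% interval -0.21 to 0.94, adjusted p = 0.325), nor did Ajap1 at 0.27 (95% interval -0.27 to 0.81, adjusted p = 0.428), so a rise and a level equal to Sham cannot be told apart. Usp53 was above Sham in 3 of 3 libraries at 0.36 (SE 0.09, adjusted p = 0.00710, edgeR) without reaching 1.5-fold, and its adjusted p was 0.0560 with library size as the only scaling. Lpo rose by 3.21 (SE 0.36, adjusted p = 7.75e-05), a 9.26-fold change from a mean of 4.67 counts, and 19.7% of tested genes were called higher. Ajap1 was at 1.17 (adjusted p = 0.0401, edgeR) when the Y-linked level was a covariate. That level nearly follows the 2 groups compared, and within groups it varies mainly through injured fl/fl replicate 3. The adjusted value therefore rests mainly on that library and is not read as a rise.

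Of 8 tested relatives of the 5 genes, 1 rose and 3 fell in the averaged injured groups. The shares over all tested genes were 21.2% higher and 16.5% lower. Between iLECko and injured fl/fl, 0 of the 8 were called by edgeR and 0 by DESeq2. By edgeR 2 had an unadjusted p below 0.05, beside 3674 of all 15010 tested genes. Over all tested genes edgeR called 0.573% higher and 0.466% lower there, so 0 of 8 is near those shares. Among the CSMD proteins, Csmd1 went against Csmd3: it had 3.27 to 4.63 CPM in Sham, 6.38 to 10.4 CPM in injured fl/fl and 7.14 to 11.1 CPM in iLECko, a rise of 1.12 in the averaged injured groups (SE 0.22, adjusted p = 0.00156, edgeR). Its log2 difference between iLECko and injured fl/fl was 0.071 (95% interval -0.39 to 0.53, adjusted p = 0.876). Csmd2, with 3 to 17 counts per library, was at 0.73 after injury (adjusted p = 0.270). Per length, Csmd1 at 0.822 TPM and Csmd3 at 0.571 TPM were near each other in Sham, while in injured fl/fl irises Csmd1 was at 1.42 TPM and Csmd3 at 0.135 TPM.

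Among the neuronal leucine-rich repeat proteins, Lrrn3 fell with Lrrn1. Lrrn3 had 7.64, 5.42 and 7.38 CPM in Sham, 2.85, 1.70 and 1.49 CPM in injured fl/fl and 2.40, 2.61 and 2.99 CPM in iLECko, a change of -1.55 in the averaged injured groups (adjusted p = 0.000251, edgeR). The injured groups of Lrrn3 overlapped, with a difference of 0.40 (SE 0.28, adjusted p = 0.385). Lrrn2 was at -0.68 (adjusted p = 0.0853), and it passed without iLECko replicate 1 (-0.85, adjusted p = 0.0372). Lrrn4 had at most 1 count in any library and was not tested.

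Pianp, the close relative of Ajap1, had higher counts and was not called between the injured groups. It had 161 to 204 CPM in Sham, 82.4 to 102 CPM in injured fl/fl and 75.4 to 97.8 CPM in iLECko, a change of -0.99 after injury (adjusted p = 5.84e-05, edgeR) and of -0.15 between the injured groups (SE 0.14, adjusted p = 0.512). Usp54, the relative of Usp53, had 69.6 to 77.4 CPM in Sham, 27.4 to 39.9 CPM in injured fl/fl and 44.6 to 49.9 CPM in iLECko. Usp54 fell by 0.86 on the log2 scale after injury (adjusted p = 0.000111), where Usp53 was at -0.0040 in the same contrast. Its iLECko libraries lay above its injured fl/fl libraries without overlap, at 0.41 (SE 0.13, adjusted p = 0.113, edgeR).

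The other heme peroxidases described here were either near 0 counts or not called between the injured groups. Mpo of neutrophils and Epx of eosinophils had 0 to 2 and 0 to 4 counts per library, and with Duox2 (1 to 13 counts) were too low to be tested. Pxdn, which crosslinks collagen IV in basement membrane, had 117 to 143 CPM in Sham, 114 to 198 CPM in injured fl/fl and 169 to 249 CPM in iLECko. Its change of 0.50 after injury passed the p but not the fold limit (adjusted p = 0.0403, edgeR), and it was called without injured fl/fl replicate 1 (0.61, adjusted p = 0.00286). Duox1, which makes hydrogen peroxide, had 2 to 9 counts in Sham, 3 to 10 in injured fl/fl and 13 to 20 in iLECko, a difference of 1.35 between the injured groups that did not pass (SE 0.53, adjusted p = 0.166).

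**Figure D2:**
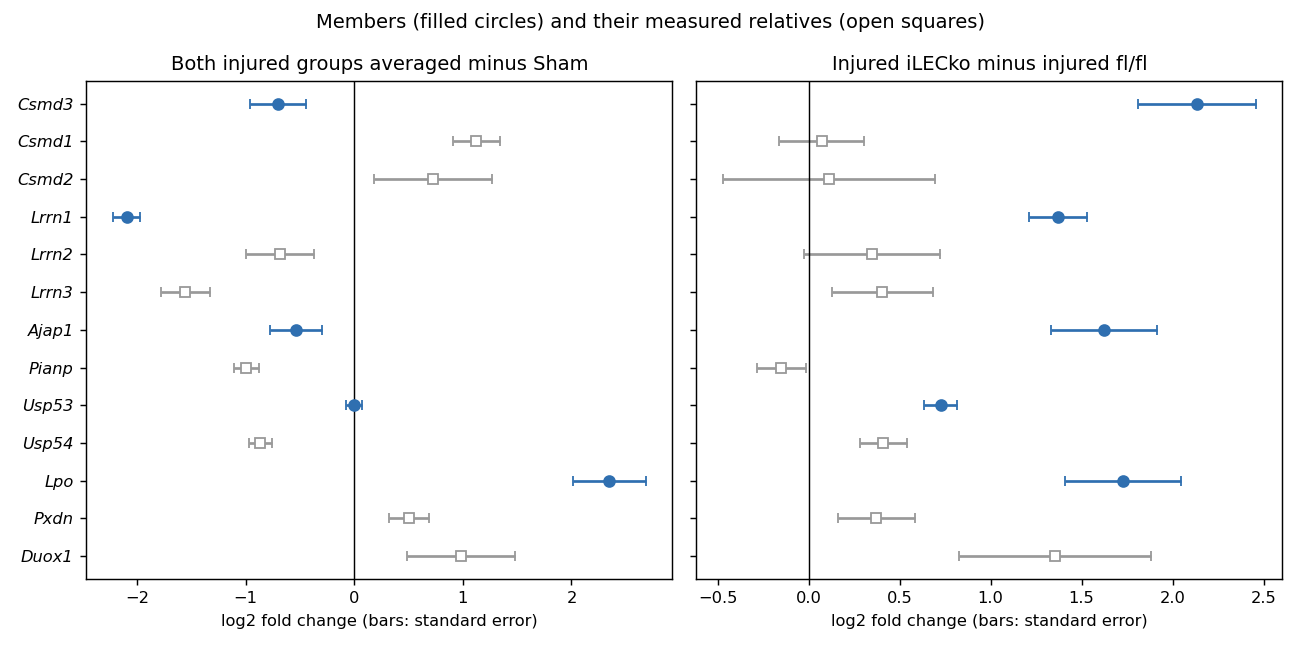
Log2 fold change (points) with its standard error (bars) for the 5 genes (filled circles) and their tested relatives (open squares), for the averaged injured groups against Sham (left) and injured iLECko against injured fl/fl (right). On the left Csmd3 at -0.70 and Csmd1 at 1.12 lie on opposite sides of 0, and on the right the 5 chosen genes lie at 0.72 to 2.13 while Csmd1 is at 0.071 and Pianp at -0.15.

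Genes whose library-to-library pattern was most like each of the 5 were found by the root-mean-square difference of log2 CPM, centred on each gene's mean, over the 9 libraries. Since the pattern includes the difference that chose the genes, these are descriptions. Nearest to Lrrn1 were Nos1ap (0.165), which binds neuronal nitric oxide synthase, Ptprz1 (0.193), a receptor tyrosine phosphatase of glia, and the transcription factor gene Tbx22 (0.193). The median over all genes was 1.17. Ptprz1 had means of 108.8 ± 12.8 CPM in Sham, 17.7 ± 3.18 CPM in injured fl/fl and 34.9 ± 3.07 CPM in iLECko, and Nos1ap had 17.5, 3.21 and 8.10 CPM.

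Nearest to Csmd3 were the predicted genes Gm52795 (0.336) and Gm52632 (0.355) and F5 (0.350), which encodes coagulation factor V, against a median of 1.01 over all genes. F5 had 72.6 ± 23.3, 19.2 ± 2.05 and 53.6 ± 6.82 CPM in Sham, injured fl/fl and iLECko (SD, n = 3). Nearest to Ajap1 were Nexmif (0.247), Grin3a (0.338), a subunit of NMDA-type glutamate receptors, and F2rl1 (0.355), the receptor PAR2, with a median of 0.858. Nearest to Usp53 were Clip4 (0.0873), Limk2 (0.103), a kinase that acts on cofilin and so on actin, and Csdc2 (0.125), with a median of 0.445. Nearest to Lpo was Nr4a2 (0.224), an orphan nuclear receptor gene, which rose from 5.80 ± 1.16 CPM in Sham to 17.4 ± 1.04 CPM in injured fl/fl and 47.2 ± 16.1 CPM in iLECko. Moxd1 (0.437) and Togaram2 (0.447) came next, with a median of 1.34.

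Distances among the 5 genes themselves also include the difference that chose them, so closeness is partly built in and is only described. Csmd3 and Ajap1 were the closest pair, with a root-mean-square difference of 0.416, and 0.0267% of tested genes were closer to Csmd3 than Ajap1 was. Ajap1 and Usp53 differed by 0.539, and Lrrn1 differed from Csmd3, Ajap1 and Usp53 by 0.765 to 1.02. Lpo differed from the other 4 by 1.19 to 2.09, and 87.1 to 91.4% of tested genes were closer to each of them than Lpo was.

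**Figure D3:**
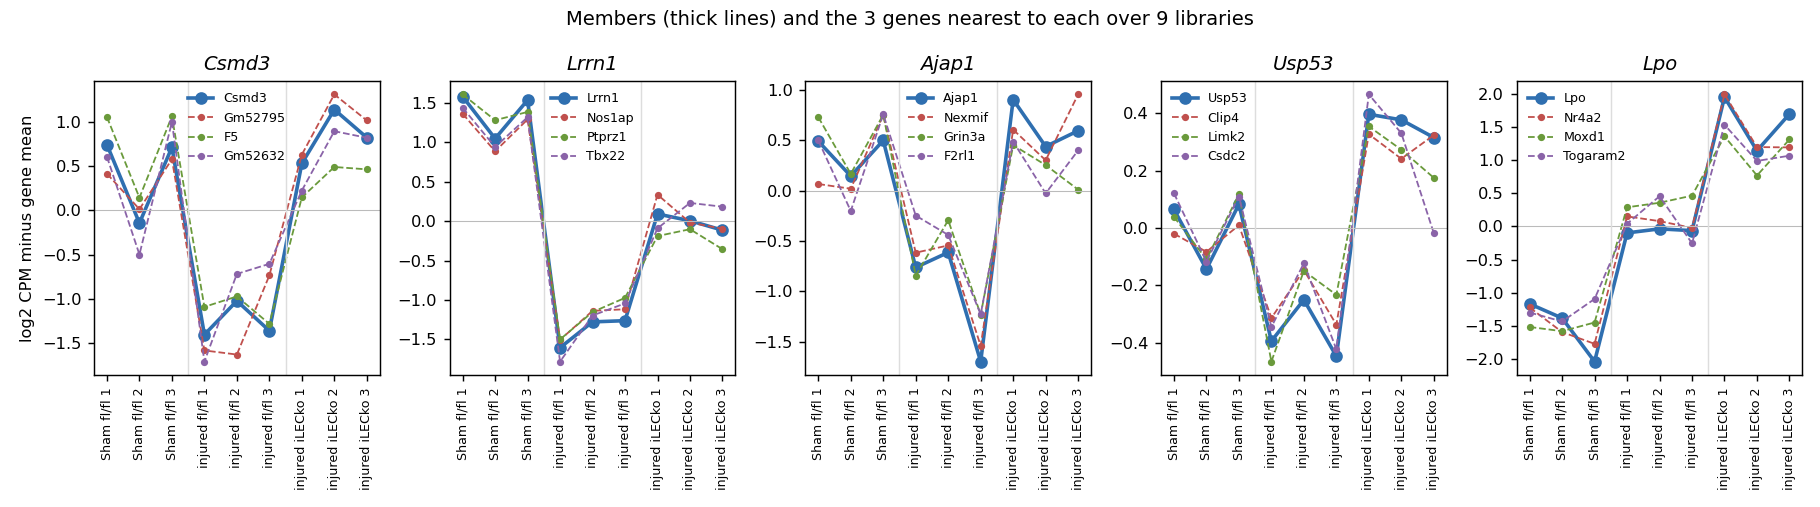
Centred log2 CPM in each of the 9 libraries for each of the 5 genes (thick lines) and its 3 nearest genes (dashed lines). The Lrrn1 panel is highest in Sham and lowest in injured fl/fl, and the Lpo panel is lowest in Sham and highest in iLECko, with Nr4a2 at a distance of 0.224.

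Wider groups of genes with related roles were counted in the same fits, leaving out the 5 genes. Of 28 tested leucine-rich repeat proteins of neurons (35 listed), 15 were lower and 2 higher in the averaged injured groups, where 16.5% and 21.2% of all tested genes were, with a median log2 change of -0.76 beside 0.00071 over all tested genes. Among the called were Slitrk3 (-2.57), Lgi3 (-2.27), Ntrk3 (1.52) and Slitrk6 (1.99). Between iLECko and injured fl/fl, edgeR called 0.573% of all tested genes higher and 0.466% lower, shares that stand beside every list below. Of the 28, 2 were higher in that contrast, Ntrk2, the receptor of BDNF (1.12, adjusted p = 0.0254, edgeR), and Lrrc4c (0.86, adjusted p = 0.0263). Positive values were found in 24 of 28, with a median of 0.41 beside -0.0099 over all tested genes. Both Ntrk2 and Lrrc4c had fallen after injury, Ntrk2 by -1.21 and Lrrc4c by -1.28. The 2 calls fell to 0 without Sham replicate 3 or iLECko replicate 1 or 2, and to 1 without Sham replicate 1. They fell to 0 as well with 6 libraries or the Y-linked covariate, and DESeq2 made 5.

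Of 13 CUB and sushi domain proteins, 5 rose and 3 fell after injury, with a median of 0.27, beside 21.2% and 16.5% of all tested genes. Susd5 (3.27) and Susd3 (1.98) were among the risen, and Sez6l (-1.88) and Susd4 (-0.79) among the fallen. None of these 13 was called between the injured groups by edgeR or DESeq2. There 4 had an unadjusted p below 0.05 (edgeR), 2 in each direction, beside 3674 of all 15010 tested genes.

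In the averaged injured groups against Sham, edgeR called 16.5% of all tested genes lower and 21.2% higher. Of 16 adherens junction genes, 6 fell, including Cdh1 (-1.93) and Nectin1 (-1.43), and 2 rose, Nectin2 (1.27) and Nectin4 (2.14), with a median of -0.24. Of 21 tested tight junction genes (24 listed), 8 fell, including Cldn19 (-1.54) and Cgn (-1.36), and 2 rose, F11r (0.93) and Marveld2 (1.01), with a median of -0.41. Between iLECko and injured fl/fl, 1 gene of each list was higher, beside 0.573% of all tested genes. These were Nectin3 (0.62, adjusted p = 0.0399, edgeR) and Cldn2 (1.12, adjusted p = 0.0278). The Nectin3 call was lost without any one Sham or iLECko library or injured fl/fl replicate 1, where the count was 0. The Cldn2 list count was 0 without Sham replicate 1 or 3 or any one iLECko library and 2 without injured fl/fl replicate 3.

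Of 7 tested heme peroxidases and sources of hydrogen peroxide (13 listed), 4 rose after injury and 0 fell, with a median of 1.52, beside 21.2% of all tested genes higher. None had an unadjusted p below 0.05 in the downward direction, and DESeq2 called none lower. Cybb, the NADPH oxidase of phagocytes, was at 3.75 (adjusted p = 5.2e-07, edgeR) and Nox4 at 1.60 (adjusted p = 1.89e-06). Between the injured groups none of the 7 was called by edgeR. There 1 was higher and 2 lower at an unadjusted p below 0.05 (edgeR), beside 3674 of all 15010 tested genes in either direction. DESeq2 called 2 lower, and 1 was called lower without injured fl/fl replicate 2 or 3.

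**Figure D4:**
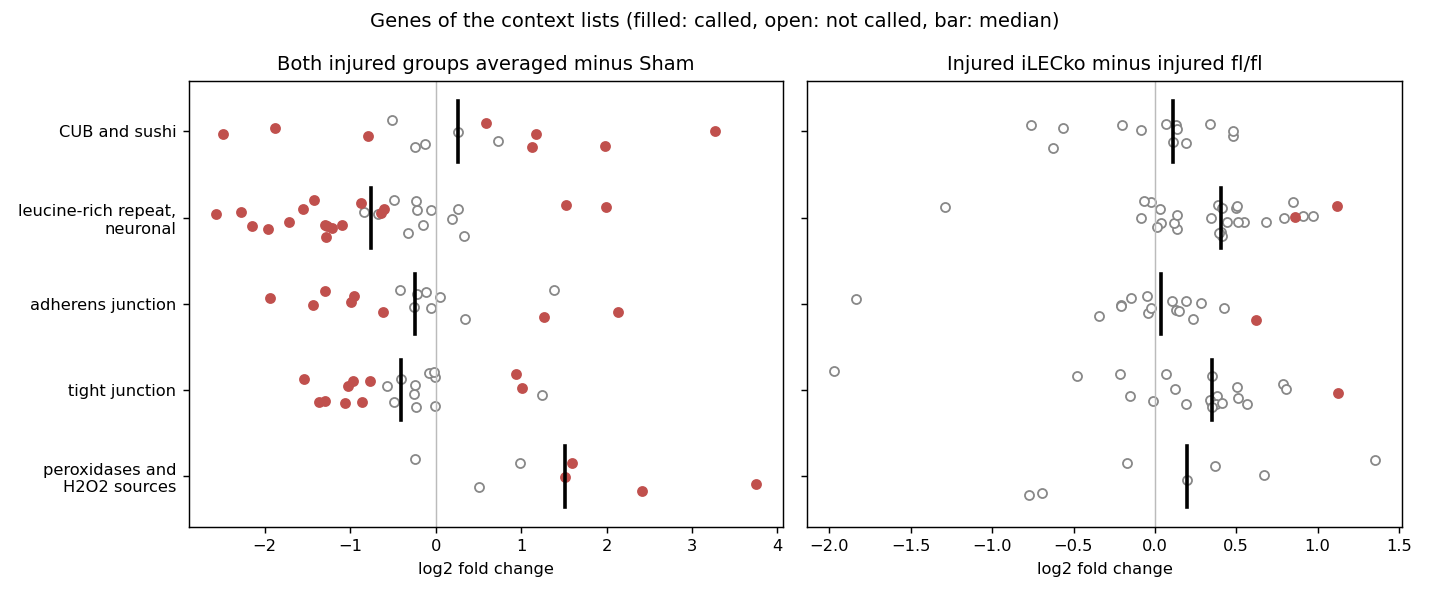
Log2 fold change of each tested gene of 5 lists of related genes (filled if called, open if not) with the list median (bar), for the averaged injured groups against Sham (left) and injured iLECko against injured fl/fl (right). On the left the leucine-rich repeat list has its median at -0.76 and the peroxidase list at 1.52, and on the right the leucine-rich repeat median is at 0.41 with 2 filled points.

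Markers of the cell types an iris dissection can hold changed strongly, and in bulk tissue fewer cells of a type cannot be told from less RNA per cell. In the averaged injured groups 16.5% of all tested genes were called lower and 21.2% higher, shares that stand beside every marker list below. Of 11 smooth muscle markers 9 were lower. Their summed level was 9578 to 11986 CPM in Sham, 2088 to 3936 CPM in injured fl/fl and 2871 to 4398 CPM in iLECko. Of 9 pigment cell markers 9 were lower, at 28531 to 30505, 3607 to 6082 and 5400 to 7508 CPM. These defining markers of the iris were present in all 9 libraries. The part of these changes in the fall of Csmd3, Lrrn1 and Ajap1 was not tested.

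Neuronal markers went in both directions after injury. Of 10 tested neuronal markers (13 listed), 6 were higher after injury, including Nefm (5.15) and Prph (2.70), beside 21.2% of all tested genes. Lower were 2, Syt1 (-2.31) and Rbfox3 (-1.90), beside 16.5%, and 1 of these 2 was left without Sham replicate 1. The neuronal markers summed to 58.7 to 77.8 CPM in Sham, 158 to 227 CPM in injured fl/fl and 94.4 to 175 CPM in iLECko. Nefm carried most of this rise, with means of 2.04 ± 0.794, 99.6 ± 64.5 and 52.7 ± 46.5 CPM, and without it the sums of the other 12 genes overlapped at 55.9 to 75.7, 61.1 to 143 and 69.8 to 85.0 CPM. Between iLECko and injured fl/fl none of the 10 was called by edgeR, 1 was lower at an unadjusted p below 0.05 and by DESeq2, and the median was -0.22. Over all 15010 tested genes 3674 had an unadjusted p below 0.05 there (edgeR). Schwann cell markers fell in 6 of 10 and rose in 1, at 801 to 966, 461 to 479 and 457 to 511 CPM in the 3 groups, so the sums of both injured groups overlapped.

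Optc, 1 gene of the ciliary body list, moved across the groups in the order of Lrrn1. The summed level of the list was 363 to 517 CPM in Sham, 75.7 to 91.8 CPM in injured fl/fl and 178 to 275 CPM in iLECko, carried by Optc, which encodes opticin of the vitreous. The other 2 genes did not follow that order, with Cacna1e at 1.34 ± 0.334, 1.52 ± 0.420 and 1.52 ± 0.212 CPM and Atp6v1c2 at 0.769 ± 0.569, 0.662 ± 0.846 and 0.287 ± 0.0531 CPM in Sham, injured fl/fl and iLECko (SD, n = 3). Of the 3 tested ciliary genes, Optc alone was called, lower after injury (-1.69, adjusted p = 1.54e-05, edgeR) and higher in iLECko than in injured fl/fl (1.54, adjusted p = 0.0214). Without injured fl/fl replicate 1, 2 ciliary genes were called lower after injury. The call between the injured groups was lost without Sham replicate 3 or iLECko replicate 1 or 2, leaving 0. The part of ciliary tissue in the Lrrn1 difference was not tested.

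Both tested genes of mucosal and lacrimal secretion were higher after injury, as Lpo was, beside 21.2% of all tested genes. These were 2 of the 4 listed, Ltf (3.78, adjusted p = 0.00607, edgeR) and Aqp5 (4.44, adjusted p = 0.00631). The summed level was 0.169 to 1.22 CPM in Sham, 2.0 to 17.6 CPM in injured fl/fl and 10.7 to 34.3 CPM in iLECko. Aqp5 carried most of it and varied widely, with means of 0.444 ± 0.628, 5.87 ± 5.43 and 16.4 ± 14.3 CPM (SD, n = 3). Neither was called between the injured groups, where none had an unadjusted p below 0.05 or was called by DESeq2. With the Y-linked covariate neither Ltf nor Aqp5 was called after injury. Their part in the level of Lpo was not tested.

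Markers of other tissues were measured as well. Retinal genes summed to 99.4 to 926 CPM in Sham, 15.9 to 598 CPM in injured fl/fl and 25.5 to 611 CPM in iLECko, and corneal epithelial genes to 8.73 to 51.0, 4.04 to 117 and 3.51 to 3.91 CPM. Of the 4 tested corneal genes 3 were lower after injury, beside 16.5% of all tested genes. Of the 6 retinal genes none was called by edgeR or DESeq2 or had an unadjusted p below 0.05. Lens genes had sums of 114 to 150, 43.7 to 143 and 91.9 to 101 CPM, with 1 of 3 higher and 1 lower after injury. Skeletal muscle genes had 14.5 to 18.5, 1.49 to 6.74 and 2.57 to 5.72 CPM, also with 1 of 3 higher and 1 lower. Over all tested genes 21.2% were higher and 16.5% lower, so nothing is read from 1 of 3. The skeletal muscle sums of both injured groups thus lay below Sham without overlap, as Lrrn1 did, and Ckm carried this fall. Ckm had means of 14.2 CPM in Sham, 0.0585 CPM in injured fl/fl and 0 CPM in iLECko. Myh1, Myh2 and Tnnt3 had higher means in both injured groups than in Sham, and Acta1 in injured fl/fl only. The part of these sums in any result was not tested. Without Sham replicate 2 no lens gene was lower, without injured fl/fl replicate 3 all 3 were higher, and without Sham replicate 2 or 3 no skeletal muscle gene was higher. Macrophage markers rose in 8 of 8, from 345 to 362 CPM in Sham to 3146 to 3514 CPM in injured fl/fl and 1934 to 2228 CPM in iLECko. Of those 8, 5 were called lower in iLECko than in injured fl/fl, beside 0.466% of all tested genes. That count of 5 was 2 and 1 without Sham replicate 1 and 3, 1, 0 and 1 without iLECko replicate 1, 2 and 3, 0 with the 6 injured libraries and 6 by DESeq2.

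**Figure D5:**
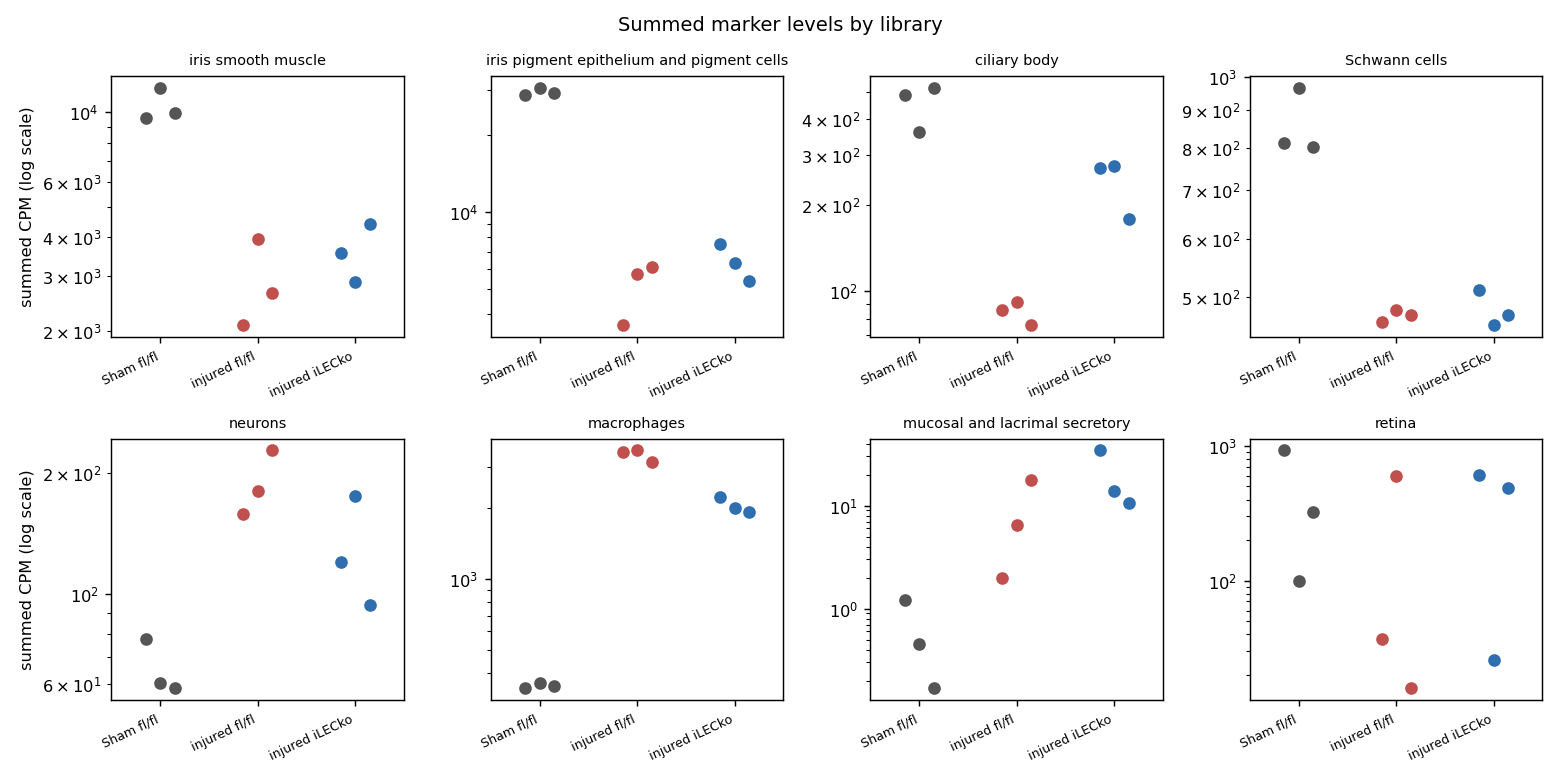
Summed CPM (log scale) of marker lists in each of the 9 libraries by group. The ciliary body sum, nearly all Optc, is highest in Sham (363 to 517 CPM) and lowest in injured fl/fl (75.7 to 91.8 CPM), and the neuronal sum, raised by Nefm in the injured groups, is lowest in Sham (58.7 to 77.8 CPM).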

How the data were processed

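The authors aligned reads of 50 bases to mm10 with HISAT2 2.0.4 and Bowtie2 2.2.5 and deposited estimated counts per gene. Their submitted notes also name DESeq2 1.4.5, and the counting program is not given in the sources used here. The deposited estimated counts (9.83 to 10.3% of values per library not whole) were rounded. A combined table was not used here.

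Genes were tested in R 4.3.3 with edgeR 4.0.16 (quasi-likelihood test, TMM factors of 0.900 to 1.09, filterByExpr, all 9 libraries, group as the only term) and Benjamini-Hochberg adjustment. A gene was called at an adjusted p below 0.05 and a change above 1.5-fold. TPM used the longest GENCODE M21 transcript (96.1% of genes), and centred log2 CPM a prior count of 0.5. The p-values measure the spread between pools.

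The 5 genes, lists and tests were chosen with earlier results of these data known. From each list the 2 lowest and 2 highest called genes of at least 1 CPM in the averaged contrast were named. Ntrk2, Lrrc4c, Nectin3, Cldn2, and Optc in the contrast of injured groups, were named after their values were seen. Alternatives were RLE scaling, library size only, no filter, DESeq2 1.42.0, the compared groups only, a replicate block, a Y-linked covariate, no fold limit and leaving out each library. In data simulated for the averaged contrast on 15010 genes, 78 of 100 genes changed 2-fold and 89 of 100 changed 3-fold were called, with 9 false calls. Only those genes were changed, equally in both injured groups. In the real data far more genes were called, and the 5 genes differed between the injured groups, so these rates need not carry over.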

Additional observations from a re-analysis of the deposited data

How the results depend on the processing

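The count of the 5 genes called lower in the averaged injured groups was 2, and it was 1 with DESeq2, 1 with the replicate block, 1 with the Y-linked covariate and 1 to 3 when single libraries were left out. The count called higher in iLECko than in injured fl/fl was 5, and it was 0 with only the groups compared, 1 with the replicate block, 0 with the Y-linked covariate and 0 to 4 when single libraries were left out. The genes were chosen on that contrast, so this count tests nothing and its changes describe the choice. The cause was not tested. The count called lower in injured fl/fl than in Sham was 3 and became 4 with no fold limit. Against Sham, 1 gene was lower in iLECko (Lrrn1) and 1 higher (Lpo), and Usp53 was called higher as well with no fold limit. Ajap1 was called higher with the Y-linked covariate (1.17), a fit whose covariate slope rests mainly on injured fl/fl replicate 3.

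Usp53 in the averaged contrast (-0.0040) changed sign to 0.00041 without the filter, to 0.069 with the Y-linked covariate, and ranged from -0.073 to 0.037 over the left-out libraries. The difference between the injured groups ranged over the left-out libraries from -0.11 to 0.23 for Csmd1, which was -0.21 with the Y-linked covariate, from -0.21 to 0.78 for Csmd2 and from -0.00064 to 0.53 for Lrrn2. None of these 4 passed its test in either direction.

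With library size as the only scaling, the median of all genes in the averaged contrast moved from 0.00071 to -0.14, and the calls from 3187 higher and 2481 lower to 2741 and 3220. Over all genes the iLECko against injured fl/fl calls (86 higher, 70 lower) were 349 and 281 by DESeq2, 11 and 13 with the replicate block and 0 and 2 with the Y-linked covariate. Same-numbered libraries correlated at -0.38 to 0.11, with 1 of 9 pairs above 0.1, so the numbers were not taken to pair the libraries. Low counts limit Lpo and Csmd3 most.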
